A study of Mus musculus with 4 samples.

Results

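The mitochondrial ribosomal protein genes were measured here by 125 probes of 75 genes, 46 named Mrpl (75 probes) and 29 named Mrps (50 probes), out of 41174 probes with 27962 gene names on the array. The members are the non-control probes whose gene name in the files begins with Mrpl or Mrps and a number. No measured value enters this rule, but the set was chosen with earlier results of these data known. Their chromosome in the files was the one that RefSeq gives for the gene for 125 of 125 probes, and they lie on 17 chromosomes. A single probe covered 42 of the genes, and 18, 13 and 2 genes had 2, 3 and 4 probes.

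Both groups were B16-F10 cells, a mouse melanoma line, grown in culture. On each of 4 arrays the Cy5 channel held RNA of cells treated for 2 h with 15 ug/ml of a polyclonal goat antibody against mouse TIM3, which the labels call an agonist, and the Cy3 channel held RNA of cells given unspecific goat IgG at the same dose and for the same time. The labels do not repeat the treatment protocol of the antibody sample for replicate 3, whose source name gives the antibody. The replicates are passages 14, 16, 18 and 19 of this line, so p-values measure the spread between passages, and no array had its dyes exchanged, so an effect of the dye and of the antibody cannot be told apart.

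Mitochondria carry their own ribosomes, which translate the few proteins encoded by mitochondrial DNA, all of them parts of the respiratory chain and ATP synthase. The RNA of these ribosomes is made in the mitochondrion, whereas every protein of the small and the large subunit is encoded in the nucleus, made in the cytosol and imported. Many have a counterpart in bacterial ribosomes, and others are found only in mitochondrial ribosomes.

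The identity of the cells was checked with melanocyte genes: Mitf, Tyr, Tyrp1, Dct, Pmel, Mlana and Sox10 were all above background, 7 of 7, with mean log2 intensities from 10.2 for Tyr to 16.8 for Dct. Of 4 markers of other cell types, Ptprc and Pecam1 had no probe that passed the filter, Cd3e was dim at 7.51 and Col1a1, a collagen chain, was measured at 11.9. By limma's adjusted p 5 of the 7 melanocyte genes were higher after anti-TIM3 and 0 lower, with a median log2 ratio of 0.41, but 89.4% of all tested probes between 16 and 17 in mean log2 intensity, where their median lies, were higher too. That median was 0.19 with the trends removed, where Tyrp1, Dct, Pmel, Mlana and Sox10 still passed as higher (limma, adjusted p from 0.00097 to 0.033). It was 0.12 in the processed signals, where Mlana alone of the 7 passed. Second probes of Dct (0.62) and Mitf (0.15) passed as higher, while a second Sox10 probe passed as lower at -0.30. Col1a1 was at 0.13, did not pass in the processed signals (adjusted p = 0.0653), and had another probe at -0.02. Their part in the results below was not tested, and in RNA from a whole culture fewer cells of a type and less RNA per cell cannot be told apart. The 4 arrays fell into pairs: over the 120 tested members the log2 ratios correlated with Pearson's r = 0.865 between replicates 2 and 3 and 0.812 between replicates 1 and 4, against 0.535 to 0.623 for the other pairs. The same pairs stood out over all tested probes (0.746 and 0.707, against 0.524 to 0.604). These are descriptions across probes, which share the arrays and the dyes.

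The mitochondrial ribosomal protein transcripts moved little and in both directions after anti-TIM3. A probe was tested where 1 or both of its channels stood well above background on 3 or 4 arrays. This held for 120 of the 125 members, with at least 1 for each of the 75 genes. The log2 ratio of anti-TIM3 over IgG is above 0 where the signal was higher after anti-TIM3, and a probe passed where limma's adjusted p over all tested probes was below 0.05. Of the 120 probes, 11 were higher (9.17%, against 14.2% of all 26545 tested probes) and 26 were lower (21.7%, against 13.6%), and 83 did not pass. The 11 include 1 Mrps30 probe with no measured IgG level, for which no direction can be given, as described further on. In all, 30.8% passed, against 27.8% of the array. The median log2 ratio was -0.03, against 0.01 over all tested probes, and the 120 ratios lay between -0.29 and 0.25, that is between 0.817 and 1.19 times the IgG signal. Under a test against a minimum change of 1.2-fold, 0 members passed (0 in either direction at an unadjusted p below 0.05 too), while 56 of all tested probes did.

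The members were brighter than most probes, and between 9 and 15 in mean log2 intensity the median ratio of all tested probes was below 0. Mean log2 intensity of the members ran from 6.58 to 15.6 with a median of 12.6, against a median of 8.95 over all tested probes. Between 11 and 14, where 75 of the 120 members lie, 5 members were higher and 21 lower (6.67% and 28%), beside 13.9% and 21.3% of the 5913 tested probes in that range. In both directions together, 34.7% of these members and 35.2% of these probes passed. The median ratio there was -0.04 for members and -0.02 for all probes. This range was chosen after the data had been seen. Over the 120 members, the ratio had a Pearson's r of -0.34 with the number of G and C bases in the probe, beside -0.26 over all tested probes. With trends on brightness and base composition removed from every array, 11 members were higher and 22 lower (13.0% and 13.1% of all tested probes, 26.1% in all), and their median was 0.00, as it was for all probes. Of the original calls, 7 of 11 and 18 of 26 still passed in the same direction. In the ratios of the authors' processed signals, 7 members were higher and 17 lower, beside 10.8% and 8.96% of all tested probes (19.7% in all), and 4 of the 11 and 15 of the 26 passed again in the same direction. When arrays were only centred on their median, without the brightness curve of loess, 0 members and 0 of all probes passed with limma (5 members higher and 0 lower at an unadjusted p below 0.05), and the members' median was 0.34, against 0.15 over all tested probes. The sign of the members' median thus turned with this step.

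**Figure D1:**
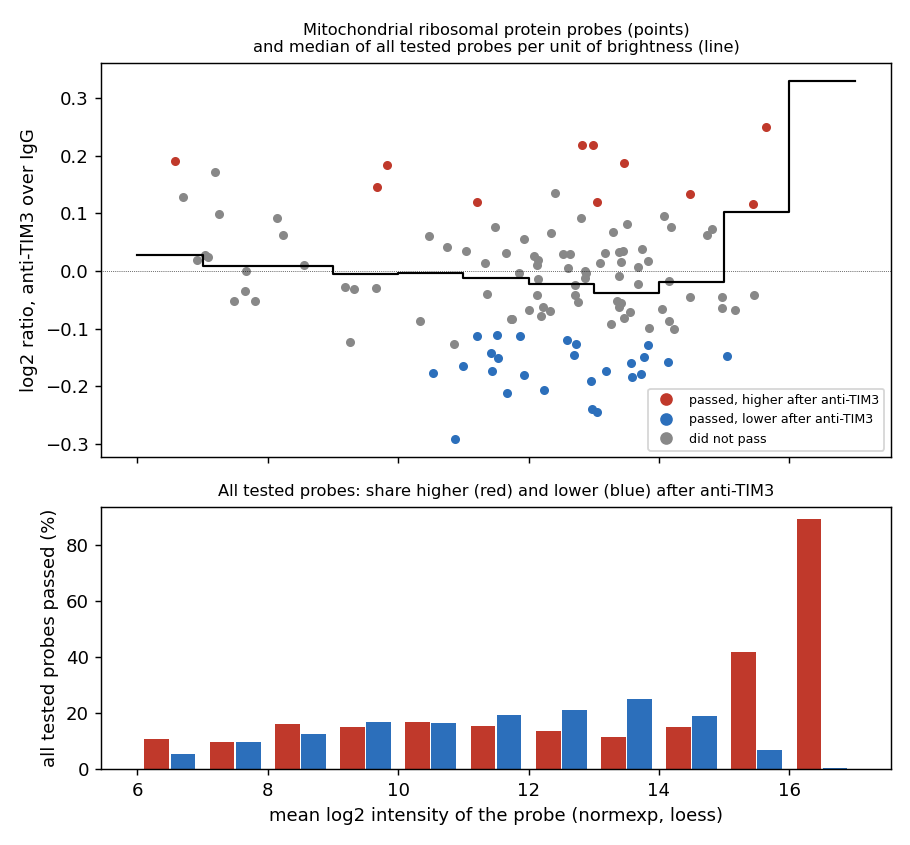
Log2 ratio of anti-TIM3 over IgG against mean log2 intensity for the 120 tested mitochondrial ribosomal protein probes (points, upper panel; red passed higher, blue passed lower, grey did not pass), with the median of all 26545 tested probes per unit of intensity as a line, and the percent of all tested probes higher (red) and lower (blue) per unit of intensity (lower panel). Members lie between -0.29 and 0.25, and the line is below 0 from 9 to 15 and above 0 in the brightest units.

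The 8 genes with the largest decreases were 5 of the large subunit and 3 of the small. Mrpl9, the counterpart of bacterial L9 in the large subunit, had the largest decrease. Its probe lies at chr3:94320618-94320677 (mm7, plus strand) and is shown because this gene has no other probe.
Mrpl9 probe: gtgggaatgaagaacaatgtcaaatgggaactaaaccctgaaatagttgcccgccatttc
In replicates 1 to 4 the Mrpl9 signal was 11.08, 10.63, 10.56 and 10.62 after anti-TIM3, against 11.31, 10.94, 10.85 and 10.96 after IgG (log2 intensity). On every array the anti-TIM3 signal was the lower of the pair, although replicate 1 was brighter than the others in both channels. The mean log2 ratio over the 4 arrays was -0.29 ± 0.05 (limma, adjusted p = 0.0012; values after ± are SDs over the 4 arrays throughout), or 0.817 times the IgG level. It was -0.35 in the ratios of the authors' processed signals and -0.26 with the trends removed, and its adjusted p stayed between 0.0025 and 0.0074 when any 1 replicate was left out.

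Mrpl19, another large-subunit protein with a bacterial counterpart, had log2 ratios of -0.15, -0.34, -0.29 and -0.20 in replicates 1 to 4 (mean -0.24 ± 0.09, adjusted p = 0.0041). Mrpl2, whose bacterial counterpart sits next to the centre that forms peptide bonds, had ratios of -0.22, -0.23, -0.25 and -0.14 (mean -0.21 ± 0.05, adjusted p = 0.0041). Mrpl4, whose bacterial counterpart lines the tunnel through which new proteins leave, averaged -0.21 ± 0.12 with an adjusted p of 0.0113. Its 4 arrays fell into the pairs described above, at -0.34 and -0.28 in replicates 1 and 4 and at -0.12 and -0.11 in replicates 2 and 3. Mrpl55, a large-subunit protein, averaged -0.16 ± 0.04 (adjusted p = 0.0109), with all 4 arrays between -0.20 and -0.10. With the trends removed Mrpl2 was at -0.10 (adjusted p = 0.0678) and Mrpl4 at -0.14 (adjusted p = 0.0434).

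In the small subunit, Mrps12 is the counterpart of bacterial S12, a protein of the site where codons are read, and Mrps5 that of S5, which also bears on reading accuracy in bacteria. Mrps12 had ratios of -0.30, -0.16, -0.16 and -0.11 in replicates 1 to 4 (mean -0.18 ± 0.08, adjusted p = 0.0110), lowest in replicate 1, and did not pass in the processed signals (adjusted p = 0.058). The brightest Mrps5 probe had ratios of -0.17, -0.17, -0.13 and -0.23 (mean -0.17 ± 0.04, adjusted p = 0.0074), and a second Mrps5 probe passed at -0.14 ± 0.07 (adjusted p = 0.0242, but 0.0592 leaving out replicate 1 and 0.101 leaving out replicate 4), while its 2 dimmer probes at 0.01 and -0.05 did not. With the trends removed the brightest Mrps5 probe was at -0.07 (adjusted p = 0.156). Mrps15, the counterpart of an early binder of the small ribosomal RNA in bacteria, averaged -0.17 ± 0.07 (adjusted p = 0.0116) and failed once replicate 2 was left out (adjusted p = 0.0523). The brightest probes of these lower genes, Mrps15 excepted, passed whichever replicate was left out.

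Fewer genes were higher. Only 7 genes had a brightest probe that passed higher with both channels above background, 4 of them of the large subunit. Mrps33, a small protein of the small subunit with no bacterial counterpart, had the largest increase at the brightest probe of all members. In replicates 1 to 4 its signal was 16.27, 15.68, 15.55 and 15.53 after anti-TIM3, against 15.98, 15.43, 15.30 and 15.32 after IgG (log2 intensity). The anti-TIM3 signal was the higher of the pair on every array, and the log2 ratio was 0.25 ± 0.03 (adjusted p = 0.0018), or 1.19 times the IgG level. In the ratios of the authors' processed signals it was 0.12 (adjusted p = 0.064), and with the trends removed 0.11 (adjusted p = 0.0344). Of all tested probes between 15 and 16 in mean log2 intensity, where this probe lies, 41.9% were higher.

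The other 2 Mrps33 probes did not pass, at 0.04 ± 0.04 and 0.08 ± 0.09. The 3 sequences are shown because 1 lies in a single block and the other 2 do not. The higher probe lies wholly within chr6:39732326-39732385 (mm7, minus strand). The other 2 each span a gap in the genome, from 39732529 to 39735414 and from 39732538 to 39735539, so that each crosses at least 1 intron. How near they lie to the start of the transcript was not looked up. The capitals mark the 33 bases that the 2 spanning probes share.
Mrps33 higher probe: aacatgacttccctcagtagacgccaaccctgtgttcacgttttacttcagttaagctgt
Mrps33 first spanning probe: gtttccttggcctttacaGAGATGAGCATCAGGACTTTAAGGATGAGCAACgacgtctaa
Mrps33 second spanning probe: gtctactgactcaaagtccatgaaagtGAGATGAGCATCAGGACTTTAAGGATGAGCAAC
Both spanning probes read a ratio nearer 0 than the probe downstream of them. Among the members, 24 probes of 20 genes spanned such a gap, of which 0 were higher and 8 lower (0 and 10 at an unadjusted p below 0.05). These shares of 0% and 33.3% stand beside 9.83% and 19.9% of the 3651 tested spanning probes of the array. The median ratios were -0.07 for these members and -0.02 for the array's spanning probes. With the trends removed they were -0.02 and -0.01.

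Mrps24, the counterpart of bacterial S3 at the entry of the messenger RNA, had ratios of 0.22, 0.16, 0.19 and 0.18 in replicates 1 to 4 (mean 0.19 ± 0.02, adjusted p = 0.0048), with no array near 0. Mrps18c, one of 3 relatives of bacterial S18, averaged 0.22 ± 0.15 (adjusted p = 0.0195), but its ratio of 0.45 in replicate 4 stood far above 0.13, 0.14 and 0.15 in replicates 1 to 3. Leaving out replicate 4 gave 0.14 (adjusted p = 0.0483). A second Mrps18c probe was at -0.02 ± 0.06. In the large subunit, Mrpl20 (0.13 ± 0.02, adjusted p = 0.0178) and Mrpl16 (0.12 ± 0.02, adjusted p = 0.0271), both with bacterial counterparts, were higher on every array. Mrpl20 failed when replicate 2 or 4 was left out (adjusted p = 0.0594 and 0.0586), and Mrpl16 did not pass without any of the 4 replicates in turn (adjusted p from 0.0537 to 0.0947). Mrpl20 was at 0.08 both in the processed signals and with the trends removed (adjusted p = 0.154 and 0.0787), and Mrpl16 did not pass in the processed signals (0.12, adjusted p = 0.058).

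**Figure D2:**
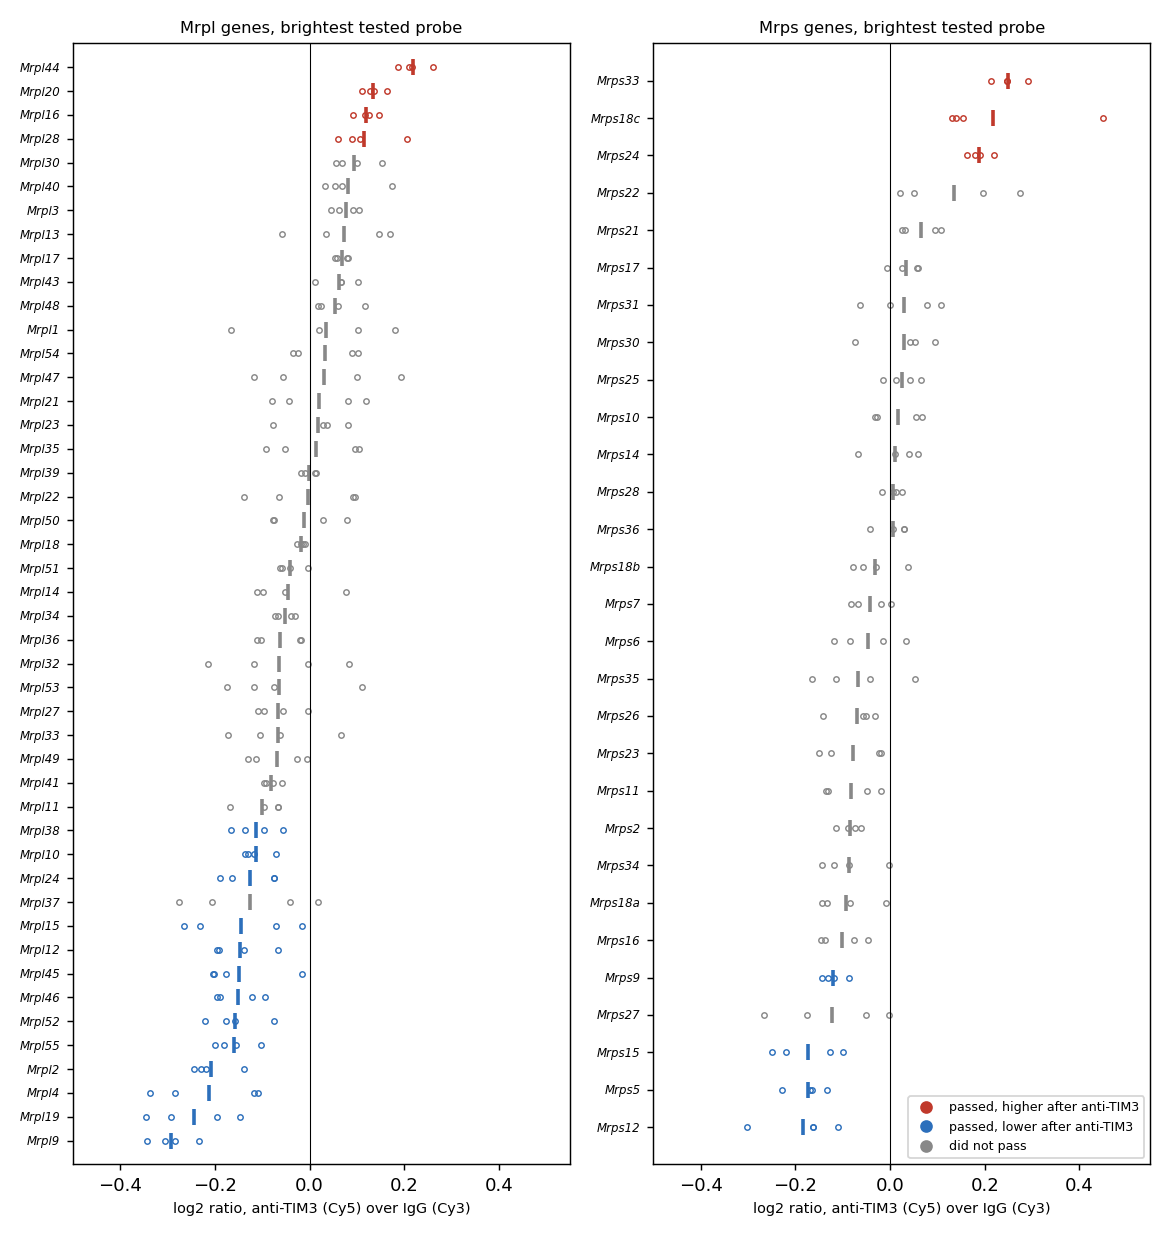
Log2 ratio of anti-TIM3 over IgG on each of the 4 arrays (circles) and their mean (bars) for the brightest tested probe of each of the 46 Mrpl genes (left) and 29 Mrps genes (right), in order of the mean; red passed higher, blue passed lower, grey did not pass. Means run from -0.29 for Mrpl9 to 0.25 for Mrps33, and 1 array of Mrps18c lies apart at 0.45.

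**Figure D3:**
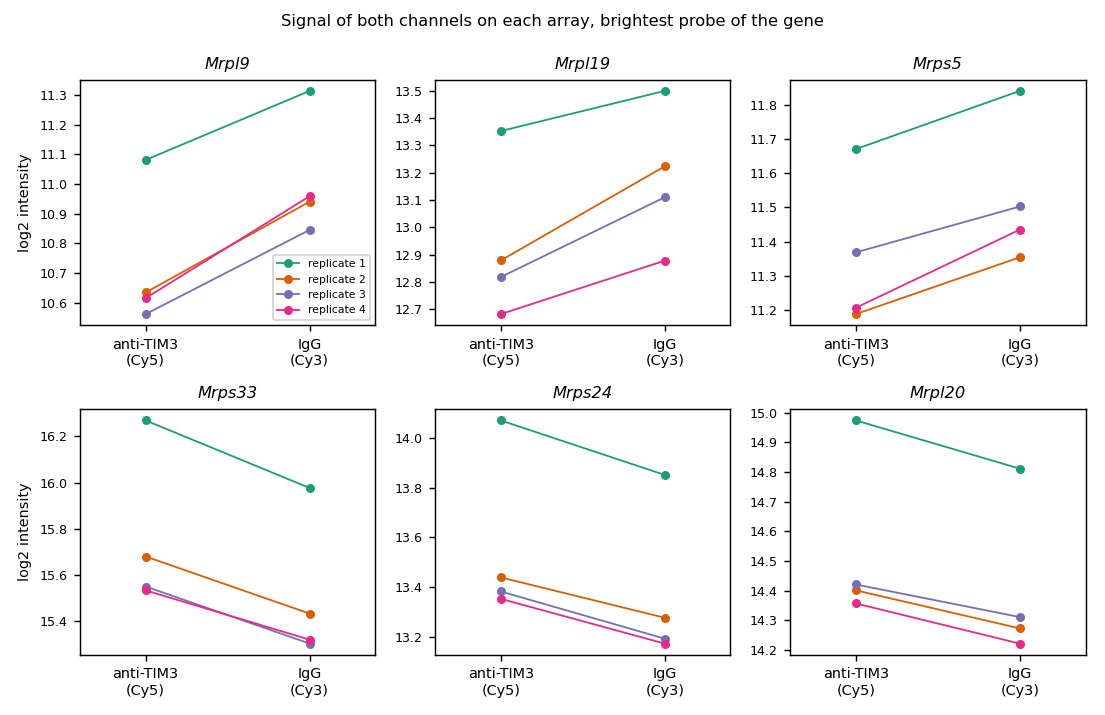
Log2 intensity of both channels on each array, anti-TIM3 (Cy5) left and IgG (Cy3) right, for the brightest probe of Mrpl9, Mrpl19, Mrps5, Mrps33, Mrps24 and Mrpl20; a line joins the 2 channels of a replicate. Lines rise towards IgG for the 3 genes of the upper row and towards anti-TIM3 for the 3 of the lower row, and replicate 1 is the brightest in both channels.

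Different probes of a gene often differed in sign. Among 61 pairs of tested probes of a gene, 33 had the same sign, and in 9 pairs both probes passed, 5 of them in the same direction. The median gap within a pair was 0.07 in log2 ratio, and many pairs lay near 0. Such counts, and the one that follows, were not made over the whole array, so no trait particular to these genes can be read from them. Of 31 genes with more than 1 tested probe, 3 had probes that passed in opposite directions: Mrpl28, Mrpl38 and Mrpl44. Their probes are shown because the gene's direction depends on which is read. Mrpl44, a large-subunit protein related to the ribonuclease III family, had 3 probes, in order from the end of the gene nearest the 3′ end at chr1:79995644-79995703, chr1:79993817-79993876 and chr1:79992210-79992269 (mm7, plus strand). They are printed whole, with no base singled out.
Mrpl44 3′ probe: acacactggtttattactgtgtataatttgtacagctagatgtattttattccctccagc
Mrpl44 middle probe: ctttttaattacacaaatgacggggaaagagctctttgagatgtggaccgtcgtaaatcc
Mrpl44 5′ probe: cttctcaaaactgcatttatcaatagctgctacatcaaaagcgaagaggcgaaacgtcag
The 3′ probe was higher, with ratios of 0.19, 0.22, 0.26 and 0.21 in replicates 1 to 4 (mean 0.22 ± 0.03, adjusted p = 0.0028). The middle probe was lower, with -0.18, -0.19, -0.21 and -0.14 (mean -0.18 ± 0.03, adjusted p = 0.0058). These 2 sets of arrays do not overlap, and both calls held whichever replicate was left out. The 5′ probe was at -0.11 ± 0.06 (adjusted p = 0.0485), and did not pass without any of the replicates in turn (adjusted p from 0.0515 to 0.196).

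For Mrpl28, a large-subunit protein with a bacterial counterpart, the bright 3′ probe at chr17:24309769-24309828 was higher (0.12 ± 0.06, adjusted p = 0.0462) and the probe at chr17:24307821-24307880 was lower (-0.24 ± 0.03, adjusted p = 0.0020; mm7, plus strand). The probes of both positions hold 31 G and C bases. In Mrpl44 the higher probe holds 21 and the lower ones 25 each, and in Mrpl38, described next, the higher probe holds 22 and the other 2 hold 31 and 33.
Mrpl28 3′ probe: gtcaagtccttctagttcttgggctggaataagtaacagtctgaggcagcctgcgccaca
Mrpl28 5′ probe: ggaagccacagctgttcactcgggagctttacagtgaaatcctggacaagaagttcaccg
The lower probe had ratios of -0.20, -0.27, -0.26 and -0.22 in replicates 1 to 4 and passed whichever was left out. The higher probe had 0.21, 0.06, 0.11 and 0.09 and did not pass without any of them in turn (adjusted p from 0.073 to 0.114), and in the ratios of the authors' processed signals it was at -0.06 (adjusted p = 0.213) and with the trends removed at 0.04 (adjusted p = 0.356).

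Mrpl38, a large-subunit protein found only in mitochondrial ribosomes, showed the reverse order along the gene. Its 3′ probe at chr11:116240999-116241058 was lower (-0.11 ± 0.05, adjusted p = 0.0413), its middle probe was at -0.09 ± 0.10, and its 5′ probe at chr11:116247337-116247396 was higher (0.18 ± 0.15, adjusted p = 0.0326; mm7, minus strand).
Mrpl38 3′ probe: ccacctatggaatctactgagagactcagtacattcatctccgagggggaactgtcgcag
Mrpl38 5′ probe: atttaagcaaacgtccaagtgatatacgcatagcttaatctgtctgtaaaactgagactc
The 5′ probe is dim, at 9.83 in mean log2 intensity against 11.9 for the 3′ probe, and its ratios were 0.22, 0.04, 0.10 and 0.37 in replicates 1 to 4. Leaving out replicate 1 or 4 ended its call (adjusted p = 0.108 and 0.117, with a mean of 0.12 in the second fit), and the 3′ probe did not pass without any replicate in turn (adjusted p from 0.0637 to 0.124). With the trends removed neither passed, at -0.03 for the 3′ probe (adjusted p = 0.51) and 0.14 for the 5′ probe (adjusted p = 0.0968), and neither passed in the processed signals (adjusted p = 0.0758 and 0.098). Of these 3 genes, Mrpl44 alone kept probes that passed in opposite directions in both of those settings. However, the 3′ and middle probes of Mrpl44 and the 5′ probe of Mrpl38 are among the members without an NM_ accession of RefSeq. Which transcript they read was not tested.

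Over all 29 genes whose tested probes lie in 1 orientation, the probe nearest the 3′ end had the higher ratio in 19 (65.5%), beside 57.5% of 5694 such genes on the array. Probes that share sequence can also be compared: 2 Mrpl40 probes overlap by 24 bases, in capitals, at chr16:18422106-18422165 and chr16:18422070-18422129 (mm7, minus strand).
Mrpl40 upstream probe: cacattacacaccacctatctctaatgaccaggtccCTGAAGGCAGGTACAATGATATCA
Mrpl40 downstream probe: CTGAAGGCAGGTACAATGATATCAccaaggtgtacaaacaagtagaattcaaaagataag
The upstream probe was at -0.00 ± 0.05 and the downstream probe at 0.09 ± 0.02, and neither passed (adjusted p = 0.954 and 0.0626).

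**Figure D4:**
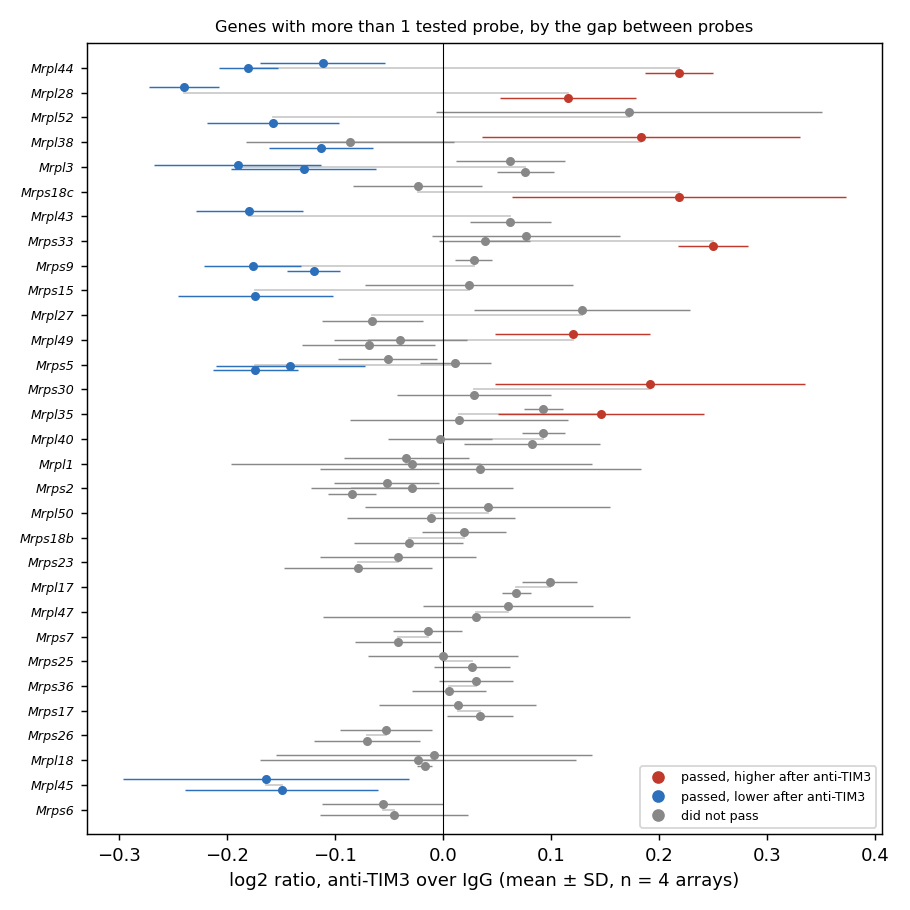
Mean log2 ratio of anti-TIM3 over IgG for each tested probe (points; bars are the SD over 4 arrays) of the 31 genes with more than 1 tested probe, in order of the gap between the highest and lowest probe; red passed higher, blue passed lower, grey did not pass. Mrpl44, Mrpl28 and Mrpl38 have probes that passed on both sides of 0.

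By subunit, the brightest probe of the gene was higher for 4 (8.33%) and lower for 13 (27.1%) of 48 large-subunit genes. It was higher for 3 (11.5%) and lower for 4 (15.4%) of 26 small-subunit genes. Beside these, 14.2% of all tested probes were higher and 13.6% lower. Between 11 and 14 in mean log2 intensity the shares were 13.9% and 21.3%. Mrps30 and Mrps18a, named for the small subunit, are counted with the large one, where structures of mammalian mitochondrial ribosomes place them, and Mrps36 with neither. Genes with a bacterial counterpart were higher in 5 (10.6%) and lower in 12 (25.5%) of 47. Those found only in mitochondrial ribosomes were higher in 2 (7.69%) and lower in 4 (15.4%) of 26. The medians were -0.05 for both classes by origin, and -0.05 and -0.04 for the large and small subunit. Whether these classes differ was not tested. The lower genes not yet named include Mrpl10 and Mrpl12, which form the stalk that binds elongation factors (-0.11 ± 0.03 and -0.15 ± 0.06, adjusted p = 0.0341 and 0.0185), and Mrpl45, which in mammals anchors the ribosome to the inner membrane (2 probes, -0.15 ± 0.09 and -0.16 ± 0.13, adjusted p = 0.0275 and 0.0386). They were named after their values had been seen. Mrpl10 failed whichever replicate was left out (adjusted p from 0.0643 to 0.119), and Mrpl12 leaving out replicate 2 or 4 (adjusted p = 0.0767 and 0.0728). The first Mrpl45 probe passed only in the fit that left out replicate 1 (adjusted p = 0.0155, otherwise 0.0797 to 0.1), and the second only in the one that left out replicate 4 (adjusted p = 0.0167, otherwise 0.0868 to 0.149). In the processed signals Mrpl10 and both Mrpl45 probes did not pass (adjusted p = 0.112, 0.138 and 0.179), and with the trends removed Mrpl10 did not (adjusted p = 0.122).

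The brightest genes were Mrps33, Mrpl51, Mrpl28 and Mrpl33. Mrpl51 and Mrpl33, both large-subunit proteins, did not pass, at -0.04 ± 0.03 and -0.07 ± 0.10. Both passed as lower in the processed signals (-0.17 for Mrpl51 and -0.16 for Mrpl33, adjusted p = 0.0343 and 0.0493) and with the trends removed (-0.18 and -0.16, adjusted p = 0.0062 and 0.0177). At the dim end, Mrpl9 is described above, and Mrps27 (-0.12 ± 0.12), Mrpl37 (-0.13 ± 0.14) and Mrps18b (-0.03 ± 0.05) did not pass. Mrps27 and Mrpl37 were again split by pairs of arrays, at -0.27 and -0.18 for Mrps27 and at -0.21 and -0.28 for Mrpl37 in replicates 1 and 4, and between -0.05 and 0.02 in replicates 2 and 3. Without replicate 3 both passed as lower, at -0.16 for Mrps27 and -0.17 for Mrpl37 (adjusted p = 0.048 and 0.0433). Among the 83 members that did not pass, the 95% confidence intervals of the log2 ratio lay between -0.24 and 0.31, so a change beyond these bounds is outside the interval of each of them. The 5 members that were not tested are 1 probe each of Mrpl33, Mrpl41, Mrpl47, Mrpl52 and Mrps18b, and 4 of them were well above background on 0 arrays in both channels.

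Of the 11 higher probes, 1 has no measured IgG level. It carries the name Mrps30 and is counted by limma's adjusted p alone (0.0265), with 3 arrays well above background after anti-TIM3 and 0 after IgG. Its mean log2 signal after anti-TIM3 was 6.68, and the lowest level that could be measured after IgG averaged 6.72, so the bound on the fold is 0.971, below 1, and these values give neither a fold nor a direction. Leaving out replicate 2 or 3 ended its call (adjusted p = 0.0691 and 0.0898). It lies at chr13:115596293-115596352 on the plus strand (mm7), opposite to the other Mrps30 probe at chr13:115589310-115589369, and the sequences are shown because they lie in opposite orientations under 1 gene name.
Mrps30 plus strand probe: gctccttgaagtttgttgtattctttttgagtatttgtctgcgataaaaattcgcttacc
Mrps30 minus strand probe: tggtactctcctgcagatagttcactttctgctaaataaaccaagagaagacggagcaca
The minus strand probe was at 0.03 ± 0.07 and did not pass. The 2 Mrps18b probes with a cDNA accession are also opposite to that gene's RefSeq probe. Which transcript these probes read was not tested.

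Ribosomal proteins of mitochondria that carry other names were at a similar level. Of 7 such genes, Ptcd3 had no probe under its name, and Dap3, Chchd1, Aurkaip1, Ict1, Gadd45gip1 and Mrp63 were tested. By limma's test 0 of 6 passed (at an unadjusted p below 0.05, 0 higher and 2 lower), with a median of -0.02. The log2 ratios of their brightest probes were 0.00 ± 0.03 for Dap3, a GTP-binding protein of the small subunit, 0.05 ± 0.14 for Chchd1, -0.05 ± 0.04 for Aurkaip1, -0.09 ± 0.03 for Ict1, which releases stalled proteins, 0.04 ± 0.03 for Gadd45gip1 and -0.09 ± 0.02 for Mrp63. Mrp63 passed as lower in the processed signals (-0.16, adjusted p = 0.0357) and with the trends removed (-0.16, adjusted p = 0.0083), and the Dap3 probe with the trends removed (-0.11, adjusted p = 0.0309). The dimmer Dap3 probe was higher, at 0.23, so this gene too depends on the probe.

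For the 4 lists that follow, the shares of all tested probes were 14.2% higher and 13.6% lower. Their median log2 intensities lie between 10 and 12, where 16.8% and 15.4% of all probes per unit were higher and 16.7% and 19.3% lower. Each gene is counted by its brightest tested probe. Dimmer probes passed as higher for Tfam, Mterfd1, Wars2 and Oxa1l, and as lower for Guf1 and Afg3l2. Among factors of mitochondrial translation, 1 of 12 tested genes was higher (8.33%) and 2 lower (16.7%; median -0.08). Tsfm, the factor that recharges elongation factor Tu, was lower with ratios of -0.29, -0.27, -0.23 and -0.27 in replicates 1 to 4 (mean -0.26 ± 0.03, adjusted p = 0.0014), and Mtif2, an initiation factor, at -0.16 ± 0.08 (adjusted p = 0.0203). Slirp, which stabilises mitochondrial messenger RNA, was higher at 0.18 ± 0.10 (adjusted p = 0.0178). Tufm, elongation factor Tu itself, was at -0.02 ± 0.05. Without 1 of the replicates the adjusted p of Mtif2 reached 0.0569 and that of Slirp 0.0742, and Mtif2 did not pass in the processed signals (adjusted p = 0.104).

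Of 15 genes listed by name as mitochondrial aminoacyl-tRNA synthetases, which charge transfer RNAs, 2 were higher (13.3%) and 4 lower (26.7%, with a median of -0.04). The probe counted for Hars2, which did not pass, lies on chromosome 2, and whether it reads the mitochondrial synthetase was not checked. Vars2 was lower at -0.24 ± 0.14 (adjusted p = 0.0111), with -0.39 and -0.33 in replicates 1 and 4 against -0.11 and -0.13 in replicates 2 and 3. The other Vars2 probes, between -0.10 and -0.03, did not pass. Rars2 was lower at -0.22 ± 0.10 (adjusted p = 0.0078) and Fars2 at -0.14 ± 0.02 (adjusted p = 0.0145). Fars2 did not pass without replicate 3 or without replicate 4 (adjusted p = 0.0551 and 0.0555). In the processed signals Vars2 and Fars2 did not pass (adjusted p = 0.056 and 0.074).

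Of 17 genes of ribosome assembly and rRNA modification, 2 were higher (11.8%) and 6 lower (35.3%; median -0.09). The 2 that were higher modify ribosomal RNA: Mrm1, a methyltransferase of the large rRNA, had ratios of 0.27, 0.24, 0.23 and 0.27 (mean 0.25 ± 0.02, adjusted p = 0.0016), and Tfb1m, which methylates the small rRNA, averaged 0.20 ± 0.05 (adjusted p = 0.0050). The second Mrm1 probe was at 0.01. Mterfd1, 1 of the 6 lower genes, was at -0.14, while its other probe passed as higher at 0.24. Ddx28, a helicase of large-subunit assembly, was lower at -0.23 ± 0.03 (adjusted p = 0.0024), and so was Rpusd4, a pseudouridine synthase, at -0.19 ± 0.08 (adjusted p = 0.0109), although not in the processed signals (adjusted p = 0.0649) or with the trends removed (-0.12, adjusted p = 0.0632). Of 7 genes that copy or transcribe mitochondrial DNA, 0 were higher and 1 lower with limma (0 and 4 at an unadjusted p below 0.05): Peo1, the Twinkle helicase, at -0.21 ± 0.15 (adjusted p = 0.0217, up to 0.0861 without 1 replicate and 0.0672 in the processed signals). The other Peo1 probe was at -0.01. For Tfam the brightest probe was at -0.13 and did not pass, while another passed as higher at 0.17.

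The proteins of cytosolic ribosomes, which do the same work outside the mitochondrion, were set beside the members. Of their 132 tested probes, 69 were higher (52.3%) and 11 lower (8.33%), against 14.2% and 13.6% of all tested probes. Their median log2 ratio was 0.14, but their median log2 intensity was 15.8. Between 15 and 16 in mean log2 intensity, 41.9% of all tested probes were higher and 6.9% lower. With the trends removed, the medians were 0.06 for the cytosolic and 0.00 for the mitochondrial proteins. In the processed signals they were 0.01 and -0.02, beside 0.01 over all tested probes.

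The promoters of the members, 250 bases before to 50 after the start of the gene (RefSeq, GRCm38.p6), were found for 66 of the 75 genes. The ETS-type motif CCGGAAG, searched on both strands, was in 23 of them (34.8%), against 9.12% of 27025 genes. The E-box CACGTG was in 5 (7.58%, against 7.24%). Of the 23 genes with CCGGAAG, the brightest probe was higher for 2 and lower for 2. Among all 75 members it was higher for 7 (9.33%) and lower for 17 (22.7%), beside 14.2% and 13.6% of all tested probes.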

How the data were processed

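Scanner files of 4 Agilent arrays with 2 colours were used. The authors' values are linear spot intensity per channel; the file headers give the software as Feature Extraction 9.5.1.1, and the submitters' processing notes give version 9. The deposited log10 ratios (Cy5 over Cy3) equal the files' ratio column within 1e-06, and their median was 0 on each array. All arrays shared 1 slide and 1 scan, so neither could be a block. Mean signal was background-corrected by normexp (offset 50, local median) and normalised by loess, giving controls weight 0. Outlier spots were dropped and repeated spots averaged. Limma 3.58.1 (R 4.3.3; lmFit, eBayes, two-sided) tested log2 ratios against 0, with Benjamini-Hochberg adjustment over 26545 probes at a threshold of 0.05. In Cy5, 25703 to 28400 probes per array were well above background, and in Cy3 21151 to 22086; the number of arrays limits the precision. Only the limma fit was tested on simulated log2 ratios, not the background correction, loess or filter.

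The members and lists were chosen with earlier results of these data known. Named genes are, by a rule on the brightest tested probe of each gene, up to 8 higher and 8 lower with the largest ratios (passed, same sign on 4 arrays, both channels measured on 3 or more), genes with probes called in opposite directions, the 4 brightest and 4 dimmest genes, up to 4 that passed per accessory list, and 6 ribosomal proteins under other names. A gene that the rule takes is not reported here. Symbols are those of the files; 105 of 125 probes were named by a RefSeq accession (GRCm38.p6), with the same symbol for 105. Coordinates are of build mm7 per the file headers; exon and untranslated region were not looked up. The alternatives changed the background offset, the scaling, the dim-probe filter, the treatment of outlying spots, the variance model, the weights of arrays, the smallest change, the pairing of channels, the trends and the replicates used.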

Additional observations from a re-analysis of the deposited data

Results flagged for a closer look

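In each of 39 groups of 4 arrays that were checked, the gap from the highest or lowest array to its neighbour was divided by the range of the group. The quotient exceeded Dixon's critical value at 95%, which chance does in about 1 of 20 groups, for 2 genes. For Mrps18c it was 0.929, with replicate 4 at 0.45 and replicates 1 to 3 between 0.13 and 0.15. For Rars2, a mitochondrial arginyl-tRNA synthetase, it was 0.883, with replicate 1 at -0.36 and the other replicates between -0.18 and -0.15. Both genes passed whichever replicate was left out.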

How the results depend on the processing

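The 11 higher and 26 lower members became 6 and 17 with a normexp offset of 10, 7 and 17 in the authors' processed signals (2378 lower of all probes, against 3600), 1 and 1 with channels fitted separately (330 and 252 of all probes), and 0 and 0 under the minimum change of 1.2-fold (43 and 13 of all). With trends removed the median was 0.00074. Without 1 replicate, 5 to 7 members were higher and 13 to 19 lower, with a median from -0.03 to -0.01, and 2142 to 3515 of all probes were higher and 2080 to 2736 lower; the fewest lower members were left without replicate 2 (13) and the fewest higher without replicate 4 (5). Of 38 named genes and probes, 5 lost their call with the offset of 10, 12 in the processed signals besides the Mrpl28 probe that turned sign, 8 with trends removed, 30 with separate channels, 32 under the minimum change and 5 to 9 without 1 replicate. Calls were gained by 2 in the processed signals, 2 with trends removed and 2 without replicate 3. The cause was not tested. Without the dim-probe filter, with it in both channels, with outlier spots kept, with a trended robust prior or with array weights, there were 9 to 13 higher and 23 to 31 lower members.

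With median centring, 0 of all probes passed limma's test (unadjusted p below 0.05: 968 higher, 38 lower), the members' median was 0.34, and these ratios turned above 0: Mrpl19 0.16, Mrpl4 0.11, Mrpl2 0.14, Mrps12 0.27, Mrps5 0.13, Mrps15 0.24, Mrpl55 0.29, Mrpl38 0.22, Tsfm 0.053, Vars2 0.072, Ddx28 0.00016, Rars2 0.11, Rpusd4 0.16, Mtif2 0.15, Fars2 0.052, the lower Mrpl28 probe 0.16 and the lower Mrpl44 probes 0.15 and 0.20. Against the median shift of 0.15 of all probes, 20 of the 26 lower members lay above and 6 below. In the processed signals the higher Mrpl28 probe turned to -0.061. The brightness curve that loess removes is the difference between these settings.

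The main fit is itself paired, because each ratio pairs the anti-TIM3 and IgG samples of 1 array. No second group shares the replicate numbers, so no further pairing was possible. Separate channels are the unpaired fit. Few arrays, passages of 1 line and fixed dyes limit every value.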
